A study of Homo sapiens with 24 samples.

Results

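The mRNAs that encode translation initiation and elongation factors carried 301 Argonaute 2 (Ago2) binding peaks in 37 genes, out of 24041 peaks in 6088 genes in the whole table. The members were chosen by gene name: every eukaryotic initiation factor (EIF1 to EIF5) and elongation factor (EEF1 and EEF2) symbol with a peak, together with the cytoplasmic poly(A)-binding proteins PABPC1 and PABPC4. The symbols starting with EIF2C and EIF2AK and the gene EIF2S1 were left out. The name rule also took 3 genes whose products are not factors themselves, namely EIF1AD and the repressors EIF4EBP1 and EIF4EBP2.

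The peaks come from crosslinking and immunoprecipitation (CLIP) with an Ago2 antibody in 293S cells, a human embryonic kidney line grown as an adherent monolayer. One group was treated with sodium arsenite at 1 mM for 30 min, a treatment that causes oxidative stress, and the other was left untreated. The labels list 4 biological replicates of each group for mRNA CLIP, RNA sequencing and a further CLIP fraction called the LO band, 24 samples in all. All groups are this single line, and the labels name no other difference between them.

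Initiation factors bring the small ribosomal subunit, the initiator tRNA and the capped end of an mRNA together. eIF4E binds the cap, eIF4G is the scaffold that joins it to the helicase eIF4A, to eIF3 on the ribosome and to the poly(A)-binding protein, and eIF2 delivers the initiator tRNA. Elongation factors then deliver each aminoacyl-tRNA (eEF1) and move the ribosome along (eEF2). Arsenite is known to cause phosphorylation of eIF2 alpha and so to lower initiation. Ago2 carries miRNAs, which pair with mRNAs mainly through their seed, bases 2 to 8.

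For each peak the authors give the mean of the log signals of the 2 treatments (log average) and their difference, arsenite minus untreated (log ratio). The steps between peaks of the same gene showed that the logs are natural and that each value is a mean over 4 libraries of the log of 1 plus a weighted number of reads, plus a term shared by all peaks of the gene. Of the 80 most frequent steps, 12 with arsenite and 21 in untreated cells fitted whole reads under a natural log, and 0 did under log2 or log10. This allowed the reads per library to be recovered for 269 of the 301 member peaks, in 17 of the 37 genes, and for 15894 of the 24041 peaks in all. The headers call both values normalized, and what the gene term stands for is not given in the sources used. The recovered libraries are numbered by rising weight of a read within each treatment, and these numbers are not the replicate numbers of the labels.

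Depth was low. The recovered peaks held 56456 to 81260 reads in each arsenite library and 32698 to 58619 in each untreated library. The arsenite libraries therefore held 1.61 times the reads of the untreated ones over all recovered peaks, and 1.62 times over the member peaks, which had 4094 against 2523 reads. Over the 8 libraries a member peak had 11 to 221 reads with a median of 18, against 11 to 1944 with a median of 16 over all recovered peaks. Libraries of the same treatment were not equally alike: over the 15894 peaks the levels correlated with r = 0.37 between arsenite libraries 1 and 2 and 0.35 between 3 and 4, but 0.20 to 0.26 across these pairs. Arsenite libraries 3 and 4 correlated with untreated libraries 3 and 4 at 0.22 to 0.23, and arsenite libraries 1 and 2 did so at 0.01 to 0.05. No label gives a batch that matches this split. Of 6 genes typical of the embryonic kidney line, LHX1, LIN28B and NEFL had peaks, and of 7 defining genes of blood, liver, connective tissue, skin and vessel cells 0 had any.

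Most translation factor peaks had more signal with arsenite, as most peaks of the table did. The median log ratio of the 301 member peaks was 0.54 (a 1.72-fold difference), with quartiles of -0.05 and 1.23, against 0.65 (1.92-fold) with quartiles of -0.16 and 1.49 over all peaks. Log ratios above 0 made up 73.4% of the members (221 peaks) and 70.3% of all peaks. Log ratios of 1 or more made up 35.5% of the members and 39.1% of all peaks, and those of -1 or less 4.32% and 7.43%. Counted over peaks, the members thus lay near the background of the table on each count, with fewer extreme values on either side. The ratios are not centred on 0, and relative to the median of all peaks the median of the members was -0.11, so a ratio is read here against the median of all peaks. With the peak of highest log average for each gene, 31 of the 37 genes (83.8%) lay above 0, beside 79.9% of all 6088 genes, and the median was 1.15 beside 1.10. Counted this way, 62.2% of the member genes had a ratio of 1 or more, beside 53.1% of all genes, so the order on the upper side turned. A ratio of -1 or less was found in 0% of them, beside 4.52%. Most members came from few genes: 10 genes with 10 or more peaks held 225 of the 301. In bulk cells, a change in CLIP signal cannot be told apart from a change in the amount of the mRNA without the RNA values, which are not analysed here, nor can fewer cells be told apart from less RNA per cell. The ratios are headed as normalized, and whether they already allow for the amount of the mRNA is not known.

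**Figure D1:**
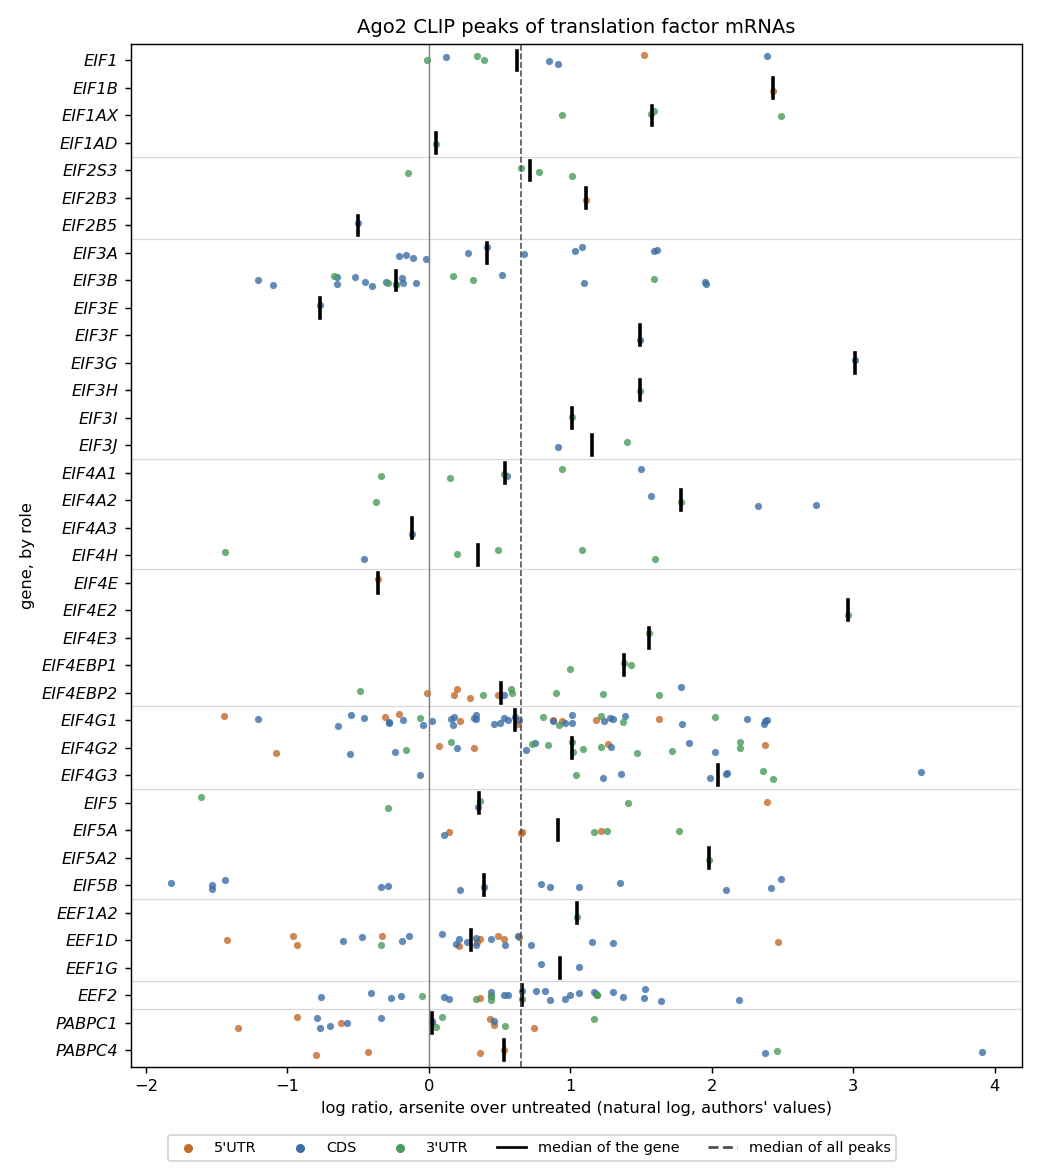
Log ratios, arsenite over untreated, (x axis, natural log, authors' values) for the 301 peaks, by gene and role (y axis); points are peaks coloured by transcript region, black bars are the medians of each gene, and the dashed line is the median of all peaks at 0.65. In some genes with many peaks, such as EIF4G1 and EEF1D, they spread from below 0 to above 2, while in EIF3B and PABPC1 all lay below 2. The medians of EIF4G3 at 2.04 and PABPC1 at 0.02 lie on opposite sides of the dashed line.

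The first group is that of the factors that hold the ribosome open for scanning. EIF1, which guards the choice of start codon, had 8 peaks whose log ratios had a median of 0.62, from -0.01 to 2.39. EIF1AX, the X-linked gene of the scanning factor eIF1A, had 4 peaks in its 3'UTR with a median of 1.58, from 0.94 to 2.49. EIF1B, a paralog of EIF1, had a single peak in its 5'UTR at 2.43. EIF1AD, a protein with an eIF1A-like domain that is no initiation factor, had a single 3'UTR peak at 0.05.

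The ternary complex and its exchange factor had few peaks. EIF2S3, the gamma subunit that binds GTP and the initiator tRNA, had 4 peaks in its 3'UTR with a median of 0.72, from -0.15 to 1.01. Of the eIF2B subunits, which recharge eIF2 with GTP, EIF2B3 had a single 5'UTR peak at 1.11 and EIF2B5 a single CDS peak at -0.50.

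The eIF3 group, the large scaffold on the small subunit, had 40 peaks in 8 genes with a median of 0.07, and 20 of the 40 lay above 0. EIF3B held 22 of these peaks, with a median of -0.23, from -1.21 to 1.96. EIF3A, the other large core subunit, had 11 CDS peaks with a median of 0.41, from -0.21 to 1.61. The subunits with a single peak were scattered, with EIF3G at 3.01, EIF3F and EIF3H at 1.49 each, EIF3I at 1.01 and EIF3E at -0.77. EIF3J, a loosely bound subunit, had peaks at 0.91 and 1.40. The EIF3F peak had the highest log average of all members, at -1.70.

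Of the helicases, EIF4A2 had 5 peaks with a median of 1.78, from -0.37 to 2.74. EIF4A1, its close paralog, had 6 peaks with a median of 0.54, from -0.34 to 1.50. EIF4A3, which works in the exon junction complex, had a single peak at -0.12. EIF4H, which stimulates eIF4A, had 6 peaks with a median of 0.34, from -1.44 to 1.60.

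The cap-binding group was uneven, and most of its peaks belonged to a repressor. EIF4E itself had a single 5'UTR peak at -0.36. EIF4E2, a cap-binding protein that represses translation, had a single 3'UTR peak at 2.96, and EIF4E3 had a single one at 1.56. EIF4EBP1, a repressor of eIF4E that is controlled by mTOR, had 3 peaks in its 3'UTR at 1.00 to 1.43. EIF4EBP2, its paralog, had 14 peaks with a median of 0.51, from -0.49 to 1.78.

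The eIF4G scaffolds had the most peaks, 84 in 3 genes, with a median of 0.88. EIF4G1 alone had 49 peaks, with a median of 0.61 from -1.45 to 2.39. EIF4G2, which lacks the part that binds eIF4E and is also called DAP5, had 25 with a median of 1.01, from -1.08 to 2.38. EIF4G3 had 10 with a median of 2.04, from -0.06 to 3.48, and 9 of them lay above the median of all peaks, against 22 of 49 for EIF4G1 and 17 of 25 for EIF4G2.

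The factors of subunit joining and the hypusine-bearing eIF5A had 30 peaks with a median of 0.66. EIF5, which triggers GTP hydrolysis by eIF2, had 6 peaks with a median of 0.35, from -1.61 to 2.39. EIF5A had 8 peaks, all above 0, with a median of 0.91 from 0.11 to 1.77, and its paralog EIF5A2 had a single peak at 1.98. EIF5B, the GTPase that joins the subunits, had 15 CDS peaks with a median of 0.39, from -1.82 to 2.49, the widest range among the genes with 10 or more peaks.

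Of the elongation factors, EEF2, the translocase, had 33 peaks with a median of 0.66, from -0.76 to 2.19, and 28 of them lay above 0. EEF1D, a subunit of the exchange complex of eEF1A, had 28 with a median of 0.30, from -1.43 to 2.47, and only 4 of them lay above the median of all peaks. EEF1G, another subunit of that complex, had peaks at 0.79 and 1.06, and EEF1A2, a tissue-restricted eEF1A, had a single peak at 1.05. PABPC1, the main cytoplasmic poly(A)-binding protein, had 18 peaks with a median of 0.02, from -1.35 to 1.17, and 2 of them lay above the median of all peaks. PABPC4, its inducible paralog, had 7 with a median of 0.53, from -0.80 to 3.91.

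In the test of single peaks, limma on the recovered levels, relative to the mean of all peaks, called 3 of the 269 member peaks (1.12%) higher with arsenite at an adjusted p under 0.05. Of all 15894 peaks, 2.01% were called higher and 1.06% lower, so the members' share was not above the background. Of the member peaks, 0 were called lower by limma, where 11 had an unadjusted p under 0.05 and a lower level. In limma voom 1 member peak was called lower, beside 157 of all 15894 peaks. An unadjusted p under 0.05 was reached by 34 member peaks (12.6%), beside 14.9% of all peaks. The levels of the 4 arsenite libraries all lay above those of the 4 untreated ones in 21 member peaks (7.81%) and 8.29% of all peaks, and all below in 1 member peak (0.372%) and 0.434% of all peaks. For this count the levels were not centred, and the arsenite libraries held 1.61 times the reads of the untreated ones.

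The strongest of the 3 was a CDS peak of PABPC4 (build hg19, chromosome 1, 40038067 to 40038123, minus strand) with a match to the miR-17 seed and a log ratio of 3.91. It had 21, 37, 10 and 27 reads in the arsenite libraries, against 0, 0, 1 and 0 in the untreated ones, so the groups were far apart and the untreated signal rested on a single read. Scaled to the reads of each treatment, the ratio was 59.1 with an exact 95% counting interval of 10.4 to 2360. Relative to the mean of all peaks the difference was 3.41 ± 0.73 (natural log, SE; limma, adjusted p = 0.000416). Its neighbour on the 5' side, a CDS peak with no listed seed (40038124 to 40038181), had 4, 5, 1 and 7 reads with arsenite, against 1, 0, 0 and 0 in untreated cells, and did not pass (limma, adjusted p = 0.294).

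A CDS peak of EIF4G2 (chromosome 11, 10827522 to 10827561, minus strand) with no listed seed had a log ratio of 2.02. It had 75, 61, 30 and 33 reads in the arsenite libraries, against 5, 8, 7 and 2 in the untreated ones, and the ranges did not overlap. The difference relative to all peaks was 1.52 ± 0.39 (limma, adjusted p = 0.00527), and the depth-scaled ratio was 5.62 (3.61 to 9.18). The adjusted p was 0.0849 without arsenite library 1, 0.0542 without arsenite library 2 and 0.0591 without untreated library 4. Another CDS peak of the gene (10820542 to 10820580) had 40, 50, 11 and 21 reads with arsenite, against 3, 5, 7 and 1 in untreated cells, and did not pass (limma, adjusted p = 0.0942), but did with the reads alone (0.0469), with limma voom (0.0327) and with the split of libraries as a term (0.0378, where 3.23% of all peaks were called higher and 1.79% lower).

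A CDS peak of EIF4G3 (chromosome 1, 21137262 to 21137317, minus strand) also matched the miR-17 seed, with a log ratio of 3.48. It had 4, 10, 6 and 10 reads in the arsenite libraries, against 0 in each of the 4 untreated ones. Against a floor of 3 reads over the untreated group, the signal was at least 6.22-fold higher with arsenite. The exact 95% counting interval of the ratio, which has no upper end, starts lower, at 4.75. No recovered peak had fewer than 11 reads over the 8 libraries. A peak with 0 untreated reads is therefore listed through its arsenite reads alone. The 6.22-fold bound, the interval and the test do not allow for this selection. The fitted difference of 2.98 ± 0.84 (limma, adjusted p = 0.0184) depends on the 1 added before the log and is no bound. The adjusted p reached 0.0539, 0.145, 0.0721 and 0.0909 when arsenite library 1, 2, 3 or 4 was left out. Among the 269 recovered members, 8 peaks had no read in any untreated library, beside 740 of all 15894 recovered peaks. No read in any arsenite library was found for 0 members, beside 110 of all recovered peaks. These counts were not adjusted for depth, and the arsenite libraries held 1.61 times the reads of the untreated ones.

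The lowest log ratio was in EIF5B. Its first CDS peak (chromosome 2, 99976714 to 99976740, plus strand) had a log ratio of -1.82, with 0, 0, 1 and 0 reads in the arsenite libraries, against 15, 2, 2 and 2 in the untreated ones. Each untreated library lay above each arsenite library, but most of the reads came from untreated library 1. The difference did not pass (-2.32 ± 0.84, limma, adjusted p = 0.112), though limma voom gave an adjusted p of 0.0476. Farther along, EIF5B also had a CDS peak at 2.49 with 0, 4, 5 and 2 reads with arsenite, against 0 in each untreated library, and did not pass (limma, adjusted p = 0.296). Its 11 reads are the fewest found in any recovered peak, so it is listed through its arsenite reads alone.

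**Figure D2:**
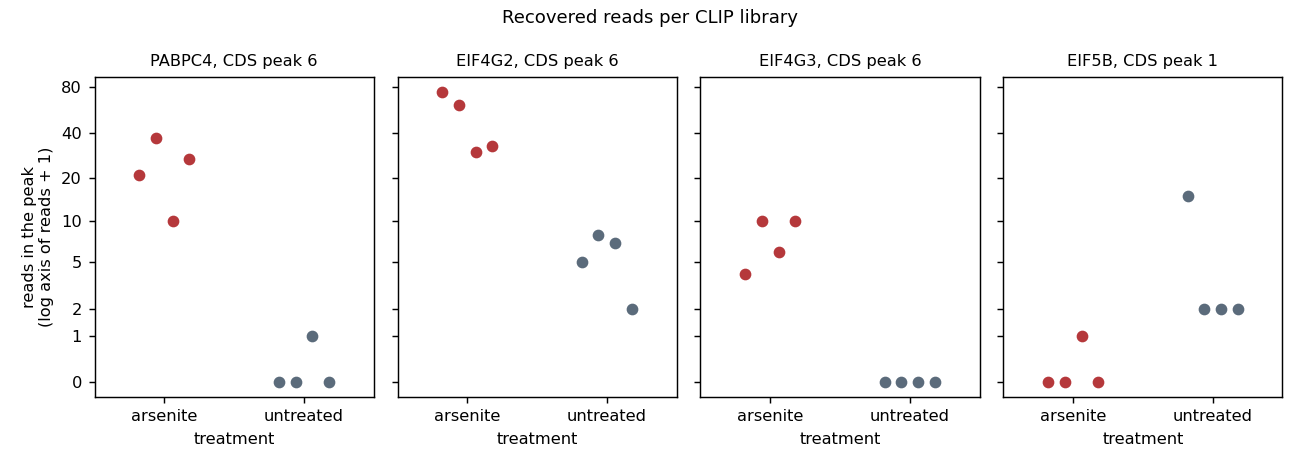
Reads per CLIP library (y axis, log axis of reads + 1) in the arsenite and untreated libraries (x axis, points are libraries) for the 3 peaks that passed the test and the lowest peak of EIF5B. The arsenite libraries had 10 to 37 reads at the PABPC4 peak, with 0 or 1 in the untreated libraries, and 0 or 1 at the EIF5B peak, with 2 to 15 in the untreated libraries.

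Members were also ranked by ratio within the upper 75% of log averages in the table, which held 141 members. The log average includes the gene term, so it does not rank peaks by their reads. Outside the called peaks, the highest were those of EIF3G (3.01), EIF4E2 (2.96), EIF1AX (2.49), EEF1D (2.47), PABPC4 in its 3'UTR (2.46), EIF1B (2.43), EIF1 (2.39), PABPC4 (2.38) and EIF5B (2.10). Most had few reads where these were recovered: the EEF1D peak had 1, 1, 3 and 5 with arsenite, against 0, 0, 1 and 0 in untreated cells. The EIF1 peak, in the CDS with a miR-10a seed match, had 5, 5, 3 and 3 with arsenite, against 0, 2, 0 and 0. The 10 lowest in that range ran from -1.44 to -0.62 and lay in EIF4H, EEF1D (3 peaks), EIF3B (4 peaks), PABPC4 and PABPC1. The peak of EIF4H, in its 3'UTR with a match to miR-17-3p, had the lowest of these values. Of the 5 peaks with the highest log averages, those of EIF3F, EIF5A, EEF1A2 and the first of EEF1D had ratios of 1.49, 1.17, 1.05 and 1.15, and the second of EEF1D had -0.61.

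Summing the reads of the non-overlapping peaks of each gene gave more depth. Of 1661 genes with recovered reads, 9.87% were called higher with arsenite and 7.1% lower relative to all genes; among the 17 member genes, 1 was called higher (5.88%) and 1 lower (5.88%). An unadjusted p under 0.05 was reached by 5 of the 17 (29.4%), beside 31.4% of all genes.

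EIF4G3 was the gene called higher. Its 10 peaks summed to 44, 37, 51 and 49 reads in the arsenite libraries, against 6, 15, 7 and 2 in the untreated ones, with no overlap. The difference relative to all genes was 1.37 ± 0.40 (limma, adjusted p = 0.0244), and 1.25 ± 0.41 with the reads alone (adjusted p = 0.0414). The adjusted p ranged from 0.00448 to 0.0869 when single libraries were left out, and was above 0.05 without arsenite library 1, 2 or 3 or untreated library 4.

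PABPC1 was called lower relative to all genes. It had 91, 46, 41 and 56 reads with arsenite, against 59, 37, 36 and 48 in untreated cells, a sum of 234 against 180, so its reads were not fewer with arsenite, but their excess was below the 1.61 times of the table. The difference was -0.87 ± 0.24 (limma, adjusted p = 0.0185). With the reads alone it was -0.49 ± 0.23 and did not pass (adjusted p = 0.163), and it did not pass without arsenite library 2 (0.0568), so the call rests in part on the gene term, which was -0.37 (arsenite minus untreated).

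EEF1D showed the reverse dependence on the gene term, which was 0.73. It had 19, 7, 48 and 67 reads with arsenite, against 48, 35, 85 and 110 in untreated cells. Of the 17 member genes only EEF1D and EIF5B (93 against 96 reads) had fewer reads with arsenite. The reads alone gave -1.61 ± 0.36 (limma, adjusted p = 0.00573), where 8.43% of all genes were called higher and 4.15% lower. With the term the difference was -0.89 ± 0.34 (adjusted p = 0.0716, and 0.0189 to 0.322 when single libraries were left out). In each treatment libraries 3 and 4 held more of its reads than libraries 1 and 2, as in the split described above. With that split (libraries 1 and 2 against 3 and 4) as a term, EEF1D was called lower (-0.89 ± 0.20, limma, adjusted p = 0.00101), where 15.1% of all genes were called higher and 11.9% lower.

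PABPC4 summed to 46, 54, 19 and 44 reads with arsenite, against 3, 6, 13 and 4 in untreated cells, a difference of 1.09 ± 0.40 that did not pass (limma, adjusted p = 0.0604, and 0.0274 to 0.185 when single libraries were left out), but did with the split of libraries as a term (0.0257). PABPC1 and PABPC4, close paralogs, thus had estimates of opposite sign; the difference between them was not tested. EIF4G2 had 177, 148, 75 and 94 reads with arsenite, against 51, 26, 34 and 20, and a difference of 0.45 ± 0.25 that did not pass (limma, adjusted p = 0.227). For EIF4G1, the scaffold with the most peaks, the sums were 69, 80, 123 and 217 against 72, 25, 60 and 120, and the difference was -0.09 ± 0.24 (limma, adjusted p = 0.855). EEF2 had 95, 84, 89 and 154 reads with arsenite, against 120, 50, 51 and 69, and a difference of -0.07 ± 0.18 (limma, adjusted p = 0.838). The 10 remaining genes had estimates from -0.62 for EIF3B to 0.66 for EIF4A2, and 0 passed in limma, with 1, EIF3B, at an unadjusted p under 0.05 (0.0397) and 0 with the reads alone.

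**Figure D3:**
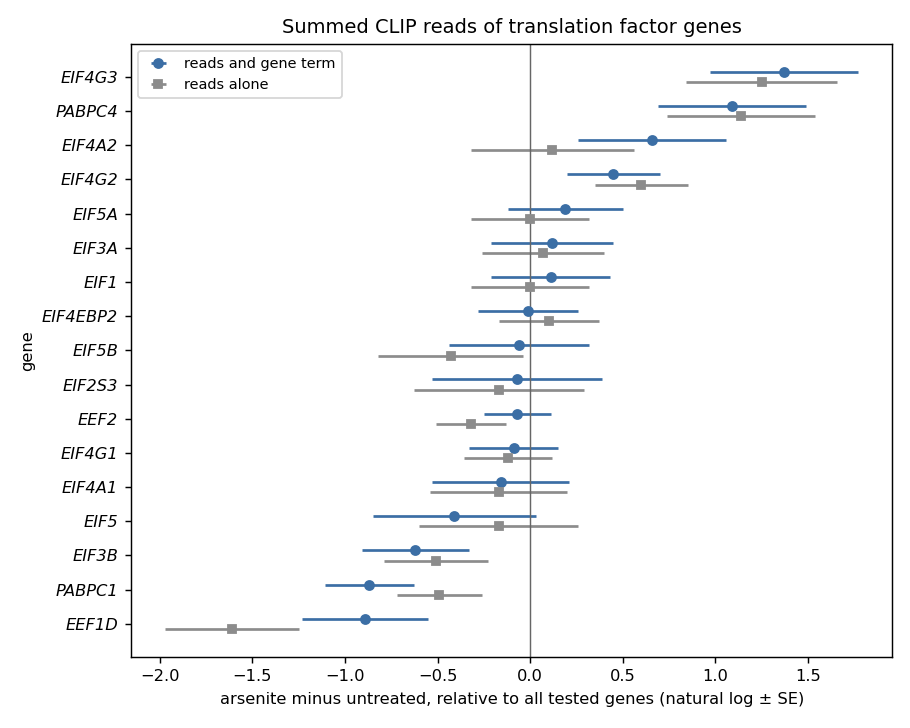
Difference in summed CLIP reads, arsenite minus untreated (x axis, natural log relative to all 1661 genes, points with SE), for the 17 genes with recovered reads (y axis), with the gene term (circles) and from the reads alone (squares). EIF4G3 at 1.37 stands at the high end; PABPC1 at -0.87 and EEF1D at -0.89 stand at the low end, where circles and squares lie farthest apart for EEF1D.

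By transcript region the members followed the order of the table. The 87 peaks in 3'UTRs had a median log ratio of 0.94, beside 0.88 over all 3'UTR peaks, and 82.8% lay above 0 beside 76.2%. The 164 CDS peaks had a median of 0.52 beside 0.58, with 69.5% above 0 beside 68.4%. The 50 peaks in 5'UTRs had 0.36 beside 0.25, with 70.0% above 0 beside 60.8%. More of the members lay in coding sequence, 54.5% beside 34.5% of all peaks, and fewer in 3'UTRs, 28.9% beside 51.0%. Within genes, the 3'UTR had a higher median than the CDS in 8 of the 16 member genes with peaks in both (50.0%), beside 60.2% of 1862 such genes in the table. It had a higher median than the 5'UTR in 7 of 10 (70.0%), beside 69.4% of 814. The CDS had a higher median than the 5'UTR in 4 of 10, beside 59.1% of 722.

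Along a gene, the log ratios of the 10 member genes with 10 or more peaks spanned 1.82 to 4.32 log units with a median of 3.32, beside 3.09 over the 529 such genes of the table. In EIF4G2 the 12 peaks of the 3'UTR had a median of 1.05, the 8 CDS peaks 0.72 and the 5 peaks of the 5'UTR 0.32. In EEF2 the CDS was the highest, with 0.82 in 25 peaks, beside 0.44 in 7 peaks of the 3'UTR and 0.36 in the single peak of the 5'UTR. EIF3B stood below 0 along most of its coding sequence, where 4 of 16 peaks lay above 0. In EEF1D the first peak of the 5'UTR had 2.47 and the next ones -1.43 and -0.96. Adjacent peaks can hold the same reads, and 58 of the 301 peaks overlap the peak before them. Some peaks are assigned to the 5'UTR of a transcript that starts inside the gene, as in EIF4G1.

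**Figure D4:**
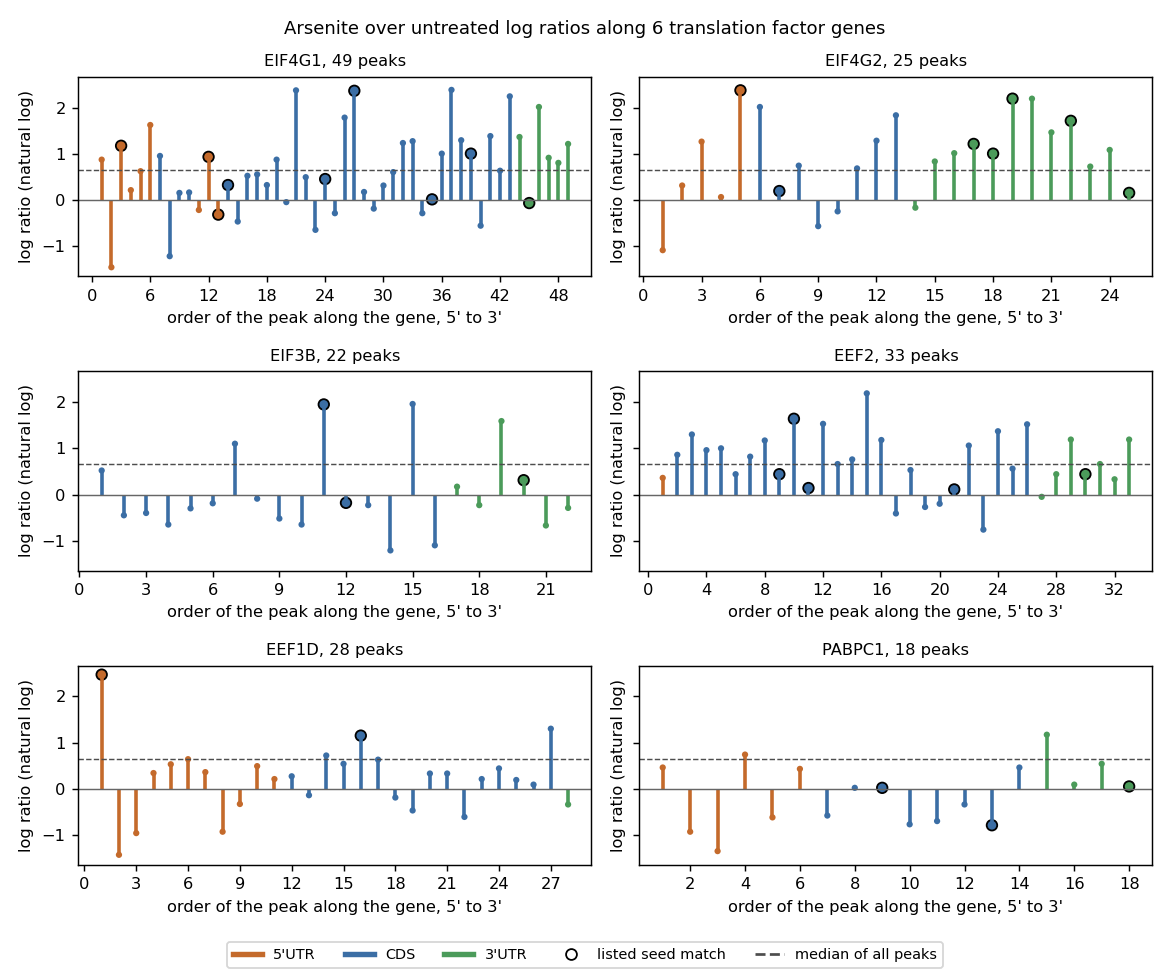
Log ratios (y axis, natural log) of the peaks of 6 genes in their order from 5' to 3' (x axis), coloured by region, with ringed points for peaks that match a listed miRNA seed and a dashed line at the median of all peaks. EIF3B has CDS peaks mostly below 0, and EIF4G2 has 3'UTR peaks above 0 in 11 of 12 cases.

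Seed matches were fewer among the members: 62 of the 301 peaks (20.6%) matched a seed of the 50 listed miRNA families, beside 31.5% of all peaks. Of these, 57 matched 1 family and 5 matched more, and 35 of the families had a match. The miRNA families with the most matched member peaks are shown by their most abundant member, with the seed in capitals, since the highest ratios at PABPC4 and EIF4G3 fall on the first of them. The fifth place was a tie of 5 families with 3 peaks each (miR-324-3p, miR-186-3p, miR-18a-3p, miR-708-5p and miR-17-3p), settled by the number of peaks in the whole table, 277 for miR-324-3p. The mature sequences are from RefSeq (GRCh38.p14), and 4 of the 5 names were found there; hsa-miR-186-5p is named only.
hsa-miR-17-5p: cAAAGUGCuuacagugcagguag
hsa-miR-29b-3p: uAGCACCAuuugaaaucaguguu
hsa-miR-188-5p: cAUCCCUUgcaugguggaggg
hsa-miR-324-3p: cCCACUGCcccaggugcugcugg
The 4 seeds differ from each other, and the site that pairs with the miR-17 seed reads GCACUUU from 5' to 3'.

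The miR-17 family had 5 member peaks, all above 0, with a median of 1.99, beside 1.67 over 716 peaks of the table, of which 93.3% lay above 0. They were the called CDS peaks of PABPC4 (3.91) and EIF4G3 (3.48), a further CDS peak of EIF4G3 (1.99), a 3'UTR peak of EIF5A2 (1.98) and a 3'UTR peak of EIF4G2 (1.01). The further EIF4G3 peak (chromosome 1, 21143938 to 21144007) had 16, 2, 12 and 18 reads with arsenite, against 2, 1, 1 and 1 in untreated cells. The lowest arsenite library equalled the highest untreated one in reads, and the peak did not pass (limma, adjusted p = 0.239). The EIF4G2 peak had 3, 8, 3 and 2 reads with arsenite, against 0, 1, 1 and 2, with a like overlap.

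The other 4 families shown had lower medians. The 4 peaks of miR-29 had a median of 0.15, from -0.34 in EIF5B to 2.96 in EIF4E2, with EIF4H at 0.20 and EEF2 at 0.11, beside 0.78 over 339 peaks of the table. The 4 of miR-186-5p had 0.81, with EIF4G2 at 2.38, EIF4E3 at 1.56, PABPC1 at 0.05 and EIF3B at -0.18, beside 1.21 over 105. The 4 of miR-188-5p, in EIF5 (1.41), EIF1 (0.39 and 0.12) and EIF4A1 (-0.34), had 0.25 beside 0.58 over 69. The 3 of miR-324-3p were all in EIF4G1, at 0.94, 0.02 and -0.31, beside a median of 0.22 over 277. With 3 to 5 peaks in a family, these medians rest on few peaks, and that of miR-324-3p on a single gene.

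Across all families the members with a seed match had a median log ratio of 0.53 and those without 0.54, beside 1.06 and 0.48 in the whole table. The gap of the table between seed-bearing and other peaks was thus not seen in the members' medians. In 3'UTRs the 26 members with a seed had 0.49 and the 61 without 1.00, beside 1.20 and 0.68 over all 3'UTR peaks. In the CDS the 30 members with a seed had 0.49 and the 134 without 0.52, beside 0.96 and 0.45. In 5'UTRs the 6 members with a seed had 1.06 and the 44 without 0.33, beside 0.39 and 0.24, so there the members with a seed were the higher ones. The members are peaks of few genes and are not independent, so this difference from the table has no test. Log ratios above 0 were found in 82.3% of the members with a seed and 71.1% of those without, beside 79.2% and 66.2%.

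**Figure D5:**
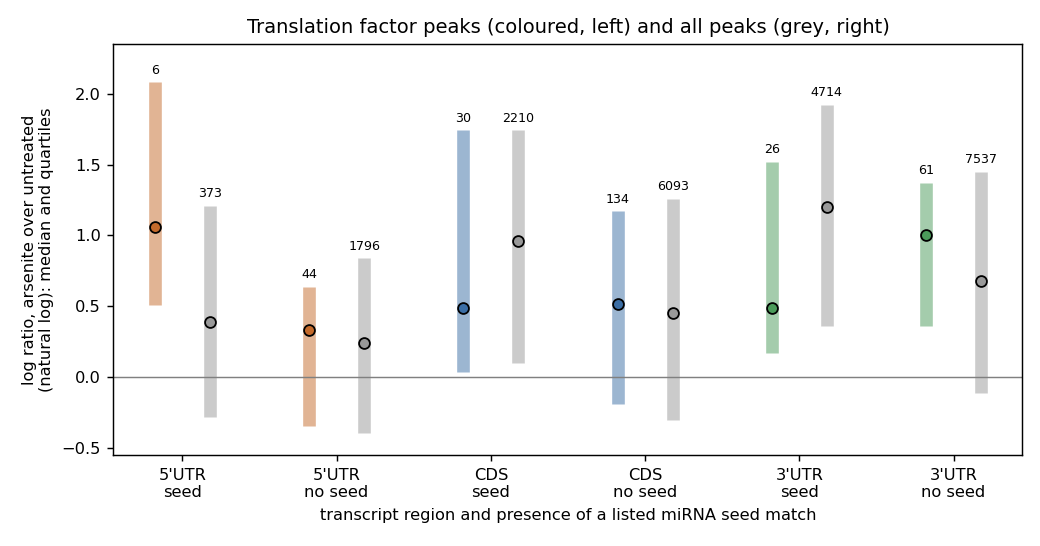
Median log ratio (points) and quartiles (bars) of arsenite over untreated signal (y axis, natural log) by transcript region and presence of a listed seed (x axis), for the members (coloured) and all peaks (grey), with the number of peaks above each bar. In 3'UTRs the members with a seed have a median of 0.49 and all such peaks 1.20, while members without a seed have 1.00 and all such peaks 0.68.

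The miRNAs themselves differed little in the LO band. In the authors' deposited table hsa-miR-17-5p had a mean of 444000 with arsenite, against 450000 in untreated cells (log2 fold change -0.02, adjusted p = 1.0). In the authors' deposited table hsa-miR-29b-3p had a log2 fold change of -0.06, hsa-miR-186-5p -0.02 and hsa-miR-188-5p -0.29. The largest difference of the 5 in the authors' deposited table was that of hsa-miR-324-3p, with means of 105000 with arsenite against 160000 in untreated cells, and its log2 fold change was -0.60 (unadjusted p = 0.00771, adjusted p = 1.0). Of the 1213 entries of the authors' deposited table, 0 had an adjusted p under 0.05 and 24 an unadjusted p under 0.05.

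Terminal oligopyrimidine (TOP) mRNAs start with a run of pyrimidines through which mTOR and LARP1 control their translation, and many encode ribosomal proteins and elongation factors. Of 11 translation factors on the TOP list, 8 had peaks, and EEF1A1, EEF1B2 and EIF4B had none. The 85 peaks of the 8 had a median log ratio of 0.44, and the 216 other member peaks 0.66, beside 0.65 for all peaks. Of the TOP peaks, 23.5% had a ratio of 1 or more, of the other members 40.3%, beside 39.1% of all peaks. EEF2, EEF1D and PABPC1 hold 79 of the 85 peaks, so the median is largely theirs. With the median of each gene as 1 value the order turned, at 0.79 for the 8 TOP genes and 0.72 for the 29 others. In 5'UTRs the 18 TOP peaks had a median of 0.35 and the 32 others 0.43, in 3'UTRs 0.49 (14 peaks) and 1.00 (73 peaks).

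Of 29 partners and regulators of the translation machinery outside the members, 18 had peaks. By the peak of highest log average, 15 of the 18 lay above 0, and 12 above the median of all genes, with a median of 1.47 beside 1.10 over all genes. The highest were EIF2AK3, the eIF2 alpha kinase PERK, at 4.45, MTOR, the kinase that controls 4E-BPs, at 3.54, and EIF2S1, the alpha subunit of eIF2, at 3.20. The lowest were LARP1, the TOP mRNA-binding protein, at -0.71, DENR, a ribosome recycling factor, at -0.41, and the mitochondrial elongation factor GFM1 at -0.03. Of the 8 partners with summed reads, 0 passed in limma; LARP1, with 38 peaks, came closest at -0.57 ± 0.22 (adjusted p = 0.0731, and 0.0162 with the split of libraries as a term).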

How the data were processed

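The peak table lists Ago2 CLIP peaks with 2 values, an average and a ratio on a natural log (ln) scale, which the authors deposited without replicate columns; per the file headers each peak also has its region, gene, transcript and seed matches. Bowtie 0.12.8, TopHat, DESeq and build hg19 appear, with no role given, in the submitters' processing notes. How reads shared by paralogs or pseudogenes were assigned is not given in the sources used. The miRNA table holds the authors' deposited means (a normalised signal), fold changes as a ratio and as log2, and p-values. All 24 samples have a group; 0 columns of samples outside the series were found.

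Levels of each treatment were the log average plus or minus the log ratio divided by 2. Reads were recovered where a gene had a single solution in whole reads for its 4 libraries, to within 1e-13, with up to 30 values compared per gene and at most 20 reads in its lowest peak. Genes with few peaks often had no single solution, so the recovered set is weighted to genes with many peaks. The recovered reads returned the deposited log ratios, which the matching required, so this is no separate check. On data simulated from the model that the recovery assumes, 96.4% of 11189 peaks were recovered, with 100% right. The simulation does not measure the share that is right in the real table. Genes with several transcripts, each solved alone, gave 1 gene term in 92 of 92 cases with arsenite and 89 of 89 untreated.

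Levels were tested with limma 3.58.1 in R 4.3.3 (trend and robust options, libraries centred on their mean, gene term included, Benjamini-Hochberg adjustment over all peaks or genes). The error of this test covers the CLIP libraries only, since the gene term has no replicate values. Reads were simulated for 15894 peaks, with the spread between libraries estimated from these data and no split of the libraries. The same fit, but without the gene term, found 7% of 100 peaks changed 4-fold and 59% of 100 changed 16-fold. Counting intervals (Clopper-Pearson) cover counting error only and do not allow for how peaks came to be listed.

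The test per peak had been set aside for files without replicate columns. The recovery, the test and its setting were therefore chosen after results were seen: 3 versions of the recovery and 6 settings of the test were run, and the setting whose estimate is the deposited log ratio minus a constant was taken before the sixth, with a term for a split of the libraries seen in their correlations, was added. Members and lists were also chosen with earlier results of these data known. Named in detail are the 10 highest and 10 lowest members in the upper 75% of log averages, the 5 highest log averages, the peaks of the 5 families most matched, and the 3 highest and lowest partners; the peaks called by the test were added after their values were seen. The lists were the TOP, partner, kidney line and other cell lists.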

Additional observations from a re-analysis of the deposited data

Results flagged for a closer look

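Among 40 groups of 4 libraries examined (the 17 genes with summed reads and the 3 called peaks, in each treatment), 3 had a library that stood apart from the other 3 beyond Dixon's 95% limit, and chance gives about 1 in 20. In EIF4G2 the gap took 0.86 of the range of the untreated libraries, whose summed reads were 51, 26, 34 and 20. In EIF5B it took 0.864 of the range of the arsenite libraries, with 30, 31, 22 and 10 reads. In PABPC1 it took 0.893 of the range of the arsenite libraries, with 91, 46, 41 and 56 reads. The gaps were measured on log levels relative to the mean of each library over all genes. The reads printed here therefore need not show which library stood apart, or in which direction.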

How the results depend on the processing

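Each of the 14 summary values was computed in 7 other ways. Relative to the median of all peaks, the median log ratio of the members turned to -0.11, CDS to -0.13, 5'UTR to -0.30, seed to -0.13, no seed to -0.11, elongation factors to -0.19, PABPC to -0.60 and TOP to -0.21; 3'UTR fell to 0.28, initiation factors to 0.01 and other members to 0.00, with 45.5% above 0, 13.3% at or above 1 and 14.3% at or below -1. With the peak of highest log average per gene the medians were 1.15 for members, 0.99 for CDS, 1.01 for no seed, 1.22 for initiation factors and for other members, 1.05 for elongation factors and for TOP, and 2.0 for PABPC, with 83.8% above 0, 62.2% at or above 1 and 0% at or below -1. Of all genes, 79.9% lay above 0, 53.1% at or above 1 and 4.52% at or below -1 when counted this way. With the median of each gene they were 0.72 for members, 0.80 for no seed, 0.91 for initiation factors and 0.79 for elongation factors and for TOP, against 0.72 for other members, with 86.5% above 0, 43.2% at or above 1 and 0% at or below -1. In the upper 75% of log averages 2.13% lay at or below -1. The cause of these shifts was not tested. The shares relative to the median of all peaks, by the median of each gene and in the upper 75% lack the same share over the whole table. They are therefore not read as traits of the members. Leaving out overlapping peaks, the genes that are not factors or EIF4G1 moved no summary value beyond its interval over peaks. With the 8 peaks that had no untreated read set to their bound, the median of the members stayed at 0.54. Over the 269 members with recovered reads the deposited ratios had a median of 0.52, beside 0.46 over all recovered peaks. With the recovered reads alone it was 0.42 for these members, beside 0.49 over all recovered peaks.

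The alternatives to the test were added after the data were seen. The members called were 3 higher and 0 lower in the reported setting and 3 and 0 with libraries not centred; 4 and 0 with the reads alone, centred or not; 4 and 1 with limma voom (5 in all); and 4 and 0 with the split of libraries 1 and 2 against 3 and 4 as a term, which called 514 and 285 of all peaks and 4 member genes in place of 2. That split was taken from the levels themselves and no label gives it, so the smaller errors it leaves are no independent support. Over all 15894 peaks, the setting reported called 319 higher and 168 lower (65.5% higher), and without centring 361 and 11 (97.0% higher), or 360 and 7 from the reads alone. The reads alone with centring called 281 and 153 of all peaks, and limma voom 271 and 157. Leaving out single libraries gave 1 to 4 called member peaks and 0 to 3 called genes, with 1 peak without arsenite library 1 or 2, no gene without arsenite library 2, and 1 gene without arsenite library 1 or untreated library 4. These fits called 174 to 345 of all peaks higher and 121 to 144 lower. Of all 1661 genes, they called 74 to 174 higher and 60 to 131 lower. No paired analysis was possible because the recovered libraries carry no replicate number; the split groups libraries and pairs none. Depth limits the rest: the first read in a library moves the mean level of a peak by 0.27 to 0.51 natural log units, and later reads move it less.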
